A study of Mus musculus with 4 samples.

Results

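The genes described here are 44 cell cycle genes, chosen by symbol, out of 55405 features in the count matrices of embryonic mouse ventricles. They comprise 19 genes of the G1/S transition, 3 D cyclins, 21 genes of G2 and mitosis (G2/M) and the inhibitor Cdkn1a. All 44 symbols were found, each on a single row. The cells were taken from heart ventricles at E12.5, dissociated with collagenase and run on a droplet platform that counts unique molecular identifiers (UMIs, counted tags of captured mRNA molecules) at the 3′ end of transcripts. The KO group held 2 libraries from Gata4fl/fl;Rosa26mTmG/+;Cdh5(Pac)-CreER+ embryos and the het group 2 libraries from Gata4fl/+;Rosa26mTmG/+;Cdh5(Pac)-CreER+ embryos. Both groups thus carried at least 1 floxed Gata4 allele, the Cre transgene and the reporter, and both received tamoxifen at E9.5. The Cdh5 promoter drives CreER in endothelial cells, and mTmG is a reporter whose membrane EGFP replaces a red protein where Cre has acted. Whether each library came from 1 embryo or several pooled is not stated in the labels, so p-values measure the spread between these libraries only. KO and het name the libraries by their labels throughout.

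In the textbook account, D cyclins with CDK4 or CDK6 begin the release of E2F factors from the retinoblastoma protein, and E2F then drives the cyclin E genes and the genes that license and copy DNA. Later, the MuvB complex with B-Myb and FoxM1 drives the genes of mitosis through promoter elements known as CHR, often beside CCAAT boxes bound by NF-Y. Cdkn1a encodes p21, which binds cyclin-CDK complexes and halts the cycle, and is a classical target of p53. Heart muscle cells still divide at this stage of mouse development, and primitive red cells divide in the blood while they mature.

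Promoters are shown because the 2 main sets of genes peak in different phases below and differ in these elements. RefSeq windows on GRCm38.p6, from 250 bases before to 50 after a transcript start, matched 36 of the 44 genes (40 windows of 300 bases). Mcm4, Ccnd1, Ccna2, Aurkb, Gins2, Ccne2, Ccnd2 and Tpx2 had no entry. Capitals mark every match, on either strand, to TTTGAA (the CHR), to CCAAT, or to an E2F element written as TTTCCCGC, TTTGGCGC, TTTCGCGC or TTTGCCGC. E2F spellings can overlap each other on opposite strands. Windows of Mki67 (chr7:135716330-135716629, minus strand) and Ccnb2 (chr9:70421505-70421804, minus strand) stand for the G2/M genes, and those of Mcm5 (chr8:75109259-75109558, plus strand) and Cdc6 (chr11:98907901-98908200, plus strand) for the G1/S genes.
Mki67: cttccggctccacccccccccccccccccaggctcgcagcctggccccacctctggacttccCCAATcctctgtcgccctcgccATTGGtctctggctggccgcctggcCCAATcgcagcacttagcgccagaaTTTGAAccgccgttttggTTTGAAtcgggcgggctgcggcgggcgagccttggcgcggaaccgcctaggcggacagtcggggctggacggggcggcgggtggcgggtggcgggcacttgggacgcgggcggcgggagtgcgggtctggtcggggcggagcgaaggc
Ccnb2: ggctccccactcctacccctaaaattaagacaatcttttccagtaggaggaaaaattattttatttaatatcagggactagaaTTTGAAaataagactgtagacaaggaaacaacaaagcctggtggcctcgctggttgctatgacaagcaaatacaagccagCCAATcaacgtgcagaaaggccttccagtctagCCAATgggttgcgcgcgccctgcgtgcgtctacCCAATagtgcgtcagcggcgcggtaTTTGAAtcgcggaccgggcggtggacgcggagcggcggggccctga
Mcm5: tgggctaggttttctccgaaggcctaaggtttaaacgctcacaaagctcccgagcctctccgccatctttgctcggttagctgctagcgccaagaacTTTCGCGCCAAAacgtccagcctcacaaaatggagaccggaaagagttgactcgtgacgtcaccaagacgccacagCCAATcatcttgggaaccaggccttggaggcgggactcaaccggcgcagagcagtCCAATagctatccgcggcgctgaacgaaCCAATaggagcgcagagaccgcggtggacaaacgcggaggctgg
Cdc6: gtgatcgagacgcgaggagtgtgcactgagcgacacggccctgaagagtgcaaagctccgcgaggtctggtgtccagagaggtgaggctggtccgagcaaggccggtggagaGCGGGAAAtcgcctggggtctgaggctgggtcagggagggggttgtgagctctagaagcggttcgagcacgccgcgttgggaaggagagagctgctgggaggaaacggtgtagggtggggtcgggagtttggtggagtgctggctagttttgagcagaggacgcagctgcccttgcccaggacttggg
The CHR letters stood in 12 of the 18 G2/M genes with a window and in 1 of the 16 G1/S genes, Mcm2, while 20.2% of 27025 genes with a window held them. The E2F spellings showed the other order, with 7 of the 16 G1/S genes, 1 of the 18 G2/M genes (Cdk1) and 2.60% of all genes. CCAAT was found in 16 of the 18 G2/M genes and 10 of the 16 G1/S genes, against 41.1% of all genes, and a pair or more of CCAAT boxes in 13 and 7 of them, against 13.3%. Neither window of Cdkn1a held any of these letters, and of the D cyclins only Ccnd3 had an entry, with a CCAAT in 1 of its windows. A match is a stretch of letters and was not tested as a binding site.

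After filtering, 13721 and 6809 cells were kept in KO replicates 1 and 2 and 22599 and 9939 in het replicates 1 and 2, with median UMIs per cell between 4161 in het replicate 1 and 14048 in het replicate 2. Het replicate 1 stood apart. In that library 13203 cells lay in clusters left unnamed, against 766 in KO replicate 1, 157 in KO replicate 2 and 344 in het replicate 2. Unnamed clusters 3, 5 and 8 held 3305, 2970 and 2387 of these cells. Their leading genes included endothelial (Plvap, Cdh5), macrophage (C1qa, Mrc1) and epicardial (Upk3b, Msln) markers. Cardiomyocyte markers took 2.99%, 3.14% and 3.18% of their UMIs outside globin. Clusters other than cardiomyocyte-like were left unnamed at 1% or more. The named classes of het replicate 1 thus held only part of its cells with such markers, with 82 in the epicardial-like class. The labels speak of 10K ventricular cells per library, while the matrices held 8597 to 23459 barcodes. Between 14 and 87 kept barcodes were shared by any pair of libraries. In all, 6 classes had at least 50 cells in every library and are called endothelial-like, cardiomyocyte-like, mesenchymal-like, epicardial-like, erythroid-like and macrophage-like after their markers. The 44 genes and other cell cycle lists were left out of the clustering, so that classes were not built on them.

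On the minus strand of chromosome 14 (63198922 to 63271692 in GRCm38), Gata4 itself, with the identifier ENSMUSG00000021944.15, had 199 and 189 CPM in KO replicates 1 and 2 and 138 and 125 CPM in het replicates 1 and 2, counted in endothelial-like cells (log2 difference 0.57, SE 0.140, edgeR adjusted p = 0.960). CPM are UMI counts relative to the class total of a library, scaled by TMM. The targeted gene was thus not lower in the libraries labelled KO. Reads at the 3′ end can lie outside a deleted part, so this level does not check the labels, and every direction below rests on them.

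The first question was whether the 44 genes follow the phases they are named for in these cells. Each cell was called G1, S or G2/M from 98 other cell cycle genes (39 of S phase, 59 of G2/M), none of them among the 44, after every cell was thinned to 2000 UMIs outside globin. All 19 G1/S genes had their highest level in cells called S and all 21 G2/M genes in cells called G2/M, each in 4 of 4 libraries. Cdc6, which loads the MCM helicase onto replication origins, was 11.2-fold higher in S than in G1 calls and 2.82-fold higher in G2/M calls. Rrm2, the regulated subunit of ribonucleotide reductase, was 9.21-fold and 7.57-fold higher, so that its level in G2/M calls stayed near that in S calls. Ung, which removes uracil from DNA, stood at 80.9 CPM in S calls, against 21.5 CPM in G2/M and 21.8 CPM in G1 calls. Among the G2/M genes, the ratio of G2/M to G1 calls ran between 5.22-fold for Cdkn3, a phosphatase that acts on CDKs, and 17.4-fold for Tpx2, a spindle assembly factor.

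The D cyclins followed the phases little. Ccnd1 averaged 190 CPM in S calls, 112 CPM in G2/M calls and 132 CPM in G1 calls, and Ccnd3 238, 220 and 227 CPM. Ccnd1 and Ccnd2 were highest in S calls in 4 of 4 libraries and Ccnd3 in 3 of 4. Cdkn1a went the other way, with 30.2 CPM in S calls, 25.3 CPM in G2/M calls and 38.7 CPM in G1 calls, and was highest in G1 calls in 4 of 4 libraries. These folds describe cells sorted by correlated genes and carry no test. Levels by phase were taken per library without splitting the cell classes. Class means differed 13.5-fold for Ccnd1 and 12.75-fold for Cdkn1a, and phase shares differed by class as well. The part of class make-up in the phase levels was not tested.

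Phases were then called from the 19 G1/S and 21 G2/M genes themselves, to give their shares by cell class and library. A cell was called G1 when both scores were below 0, and otherwise took the phase of the higher score. Of 31937 scored cells in the named classes, 13.4% lay within 0.05 of a boundary, and 68.4% took the same phase with the other lists, so the shares are ranges and not counts of dividing cells. RNA from broken cells can add UMIs to any droplet, and its part in the calls was not tested.

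Cardiomyocyte-like cells had 36.2% and 33.3% of cells in G2/M in KO replicates 1 and 2, against 38.8% and 34.9% in het replicates 1 and 2. Endothelial-like cells had 23.3% and 18.7% in KO, against 26.5% and 19.3% in het. In both classes the groups overlapped, and in both groups replicate 1, the shallower library, was the higher. With the cell cycle genes in the clustering, cardiomyocyte-like cells had G2/M shares of 19.95% and 16.7% in KO, against 37.8% and 22.98% in het. The groups did not overlap there (difference in mean share -12.07 points, against -2.09 points with those genes left out). That class held 4882 and 2420 cells in KO and 5096 and 2994 in het. With those genes left out it held 6861 and 3636 in KO and 5462 and 4099 in het. Clustering with those genes left clusters led by H3c3 and by Ube2c unnamed, though cardiomyocyte markers took 7.7% and 7.4% of their UMIs outside globin. Its unnamed cells were 87.9% and 91.1% in S or G2/M in KO and 65.7% and 87.2% in het. With those genes left out, epicardial-like cells, the outer layer of the heart, had the fewest in G2/M, with 19.3% and 14.3% in KO, against 8.54% and 12.4% in het. Macrophage-like cells had the most in 4 of 4 libraries by S and G2/M together, with 66.0% and 77.1% in KO, against 62.6% and 66.2% in het. Each of these shares carries a 95% Wilson interval, drawn in the plot of phase calls, which covers counting error only. The widest was that of macrophage-like cells in KO replicate 2, with 39.2% to 58.8% in G2/M from 96 cells.

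**Figure D1:**
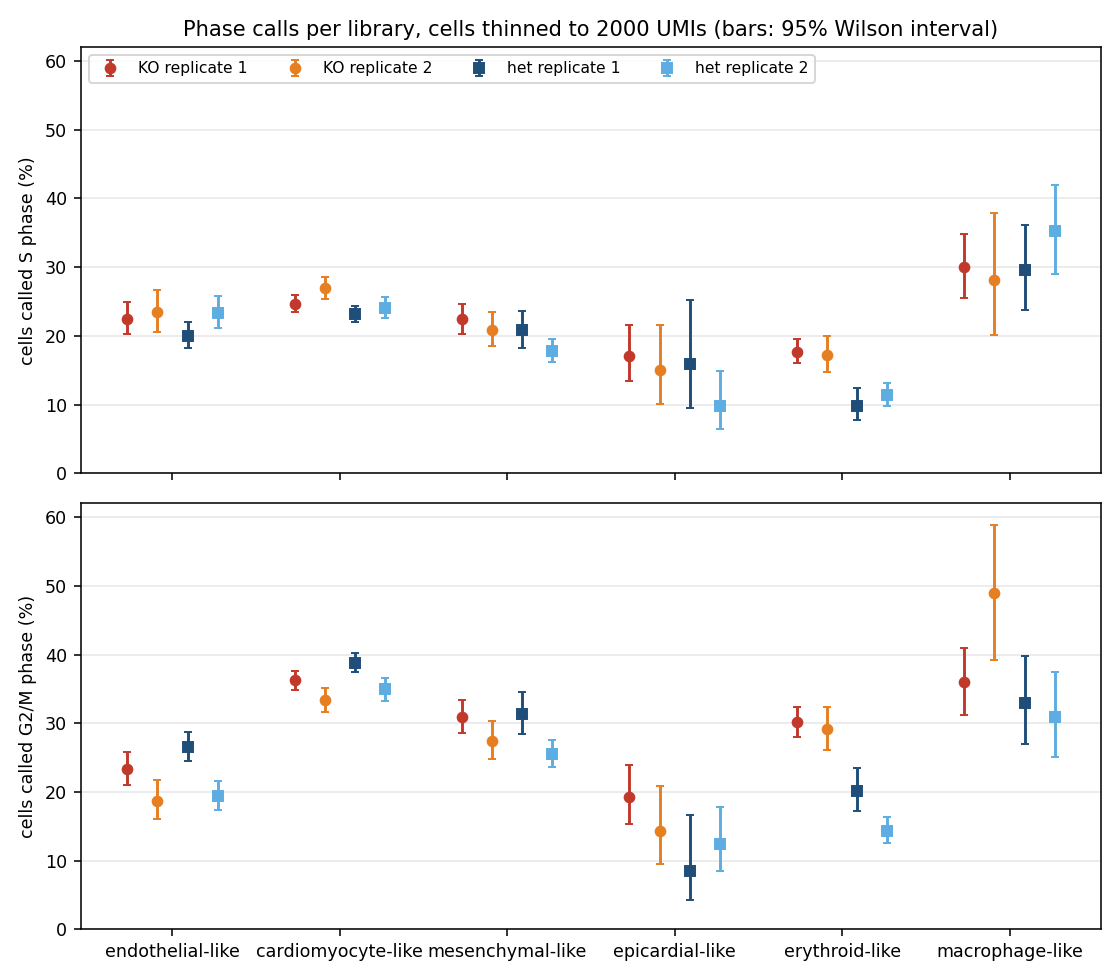
Share of cells called S (top) and G2/M (bottom) by cell class, 1 point per library with its 95% Wilson interval; circles are KO and squares het libraries. In erythroid-like cells both KO libraries lie above both het libraries in both phases, with G2/M shares of 30.2% and 29.2% in KO, against 20.1% and 14.4% in het, while 37.4% and 44.4% of erythroid-like cells in KO, against 3.94% and 9.97% in het, lay outside the largest cluster.

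Between KO and het, the S share was higher in both KO libraries than in both het libraries in cardiomyocyte-like cells (24.6% and 26.9% in KO, against 23.2% and 24.1% in het), in mesenchymal-like cells (22.4% and 20.9%, against 20.8% and 17.8%) and in erythroid-like cells (17.7% and 17.2%, against 9.83% and 11.4%). The G2/M share did not overlap in epicardial-like, erythroid-like and macrophage-like cells, again with KO above het. Erythroid-like cells of KO and het differed in the clusters they held, and within the largest of these, cluster 1, the G2/M shares were 9.41% and 5.86% in KO, against 19.2% and 9.33% in het, and the S shares 10.1% and 7.16% in KO, against 9.27% and 9.81% in het. The KO libraries thus did not lie above the het libraries in cluster 1. Thinned to 4000 UMIs, macrophage-like cells had 34.4% and 43.8% in G2/M in KO, against 37.3% and 31.8% in het, which overlapped, with a difference of 4.52 points. With the 98 other genes the erythroid G2/M difference was 5.14 points. The differences in mean share of S cells were 2.13, 2.36 and 6.87 percentage points in cardiomyocyte-like, mesenchymal-like and erythroid-like cells, and those of G2/M were 6.29, 12.4 and 10.5 points in epicardial-like, erythroid-like and macrophage-like cells. Each had an exact two-sided permutation p of 0.333, which is the smallest that 2 libraries against 2 can give, so none could pass 0.05. In endothelial-like cells, the class with the Cre promoter, the mean S share was 23.0% ± 0.689 (SD, n = 2) in KO and 21.7% ± 2.37 in het, and the mean G2/M share 20.98% ± 3.25 in KO and 22.9% ± 5.08 in het (exact permutation p = 0.667 for each). Thinning left out 395 and 164 endothelial-like cells of KO replicates 1 and 2 and 165 and 320 of het replicates 1 and 2. Many of them lay in endothelial-like cluster 15 (median 2079.5 UMIs per cell). There 131 of 417 and 152 of 283 cells were scored in KO, against 238 of 293 and 186 of 405 in het. Its scored cells had G2/M shares of 37.4% and 30.3% in KO and 41.2% and 28.0% in het. Without thinning the G2/M shares of endothelial-like cells were 28.2% and 19.8% in KO, against 29.9% and 20.3% in het, and those of cardiomyocyte-like cells 39.3% and 34.0%, against 42.1% and 36.1%. The S shares of cardiomyocyte-like cells without thinning were 25.5% and 28.4% in KO, against 23.2% and 26.3% in het, which overlapped. In macrophage-like cells the unthinned G2/M shares were 35.64% and 44.4% in KO, against 35.61% and 30.4% in het, and in epicardial-like cells 20.1% and 13.6%, against 6.098% and 12.95%. Erythroid-like cells had 24.9% and 22.7% in G2/M without thinning in KO, against 20.4% and 14.9% in het. In cardiomyocyte-like cells thinning left out 2217 and 824 cells of KO replicates 1 and 2 and 435 and 934 of het replicates 1 and 2. In the other 4 classes it left out 0 to 612 cells per library.

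Levels separated the cell classes in a way that most of the 44 genes shared. UMIs were summed per class and library and scaled by TMM over all 24 sums, the scale of every class comparison below unless another is named. All 21 G2/M genes and 16 of the 19 G1/S genes were lowest in epicardial-like cells, and 17 and 16 of them were highest in erythroid-like cells. Taken without TMM, as CPM of UMIs outside globin, epicardial-like cells were lowest for 21 and 13 of them, but erythroid-like cells were highest for only 9 and 8, and macrophage-like cells for 9 and 8 more. The place of erythroid-like cells at the top thus depended on the scale, and it also differed by library and cluster. On the TMM scale the G1/S genes of het replicate 1 summed to 891 CPM in erythroid-like, 1150 CPM in cardiomyocyte-like and 1407 CPM in macrophage-like cells. Its G2/M genes summed to 2850 CPM in erythroid-like and 3314 CPM in macrophage-like cells. As CPM of UMIs outside globin, the G1/S genes summed to 228 to 466.5 CPM in the largest erythroid-like cluster, cluster 1. In epicardial-like cells they summed to 853 to 982 CPM. The median ratio of highest to lowest class mean was 3.76 for the G1/S genes and 4.40 for the G2/M genes, close to the 3.96 of the 8542 genes with at least 20 CPM in a class. Because classes come from clusters, class against class was not tested.

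**Figure D2:**
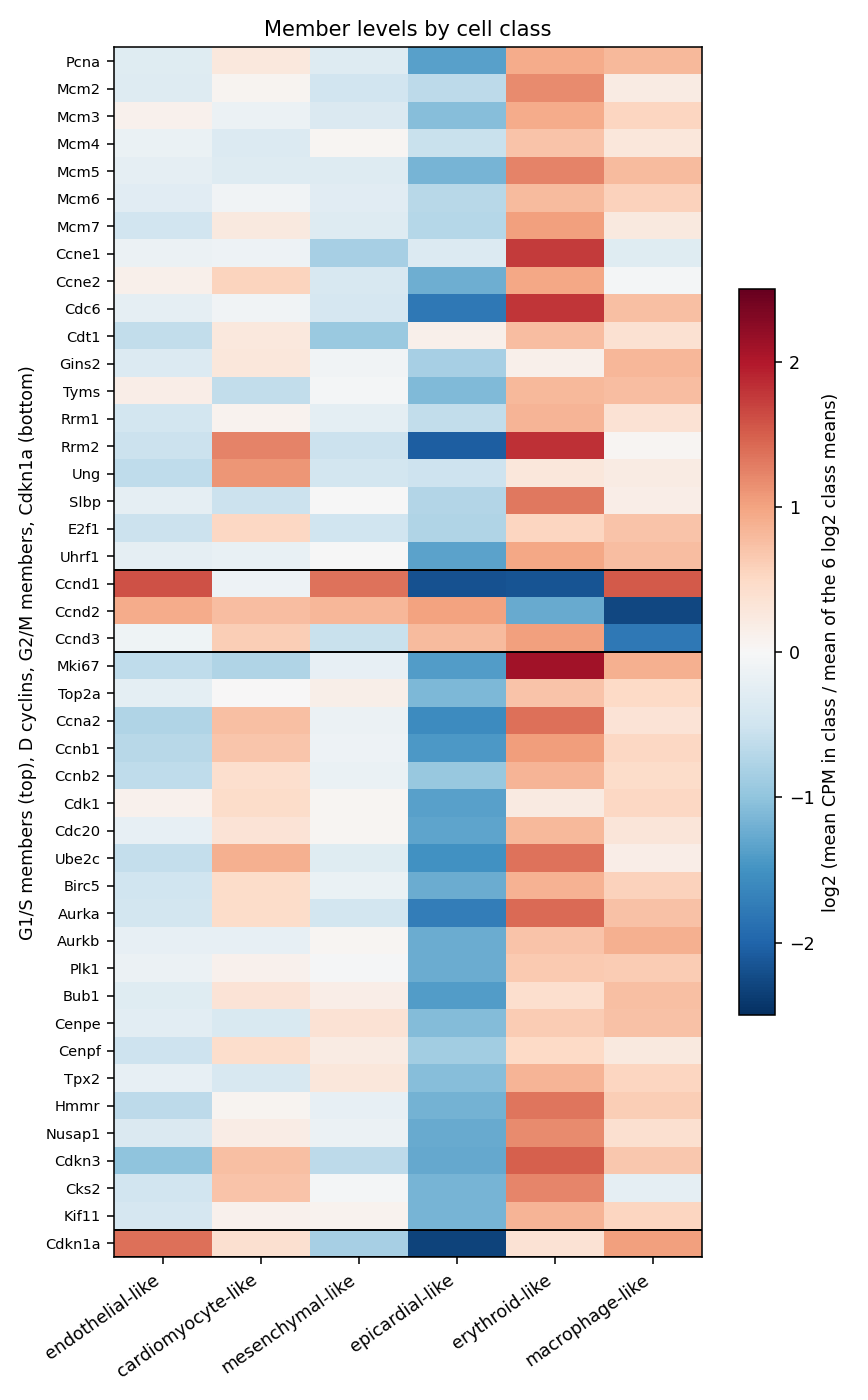
Mean level of each of the 44 genes in each of 6 cell classes, as the log2 ratio to the mean of its 6 log2 class means (red higher, blue lower; mean of 4 libraries). The epicardial-like column is blue for 21 of 21 G2/M genes, and the D cyclin rows do not follow the rows above and below them.

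Among G1/S genes the ratio between classes was largest for Rrm2 (ENSMUSG00000020649.11, chromosome 12, 24708241 to 24714146, plus strand, GRCm38), at 14.8-fold. Rrm2 stood at 318 and 477 CPM in erythroid-like cells of KO replicates 1 and 2 and at 93.8 and 244 CPM in those of het replicates 1 and 2. Cardiomyocyte-like cells had 167 and 234 CPM of it in KO and 167 and 179 CPM in het, while endothelial-like cells had 51.5 and 52.6 CPM in KO and 56.3 and 59.5 CPM in het. In het replicate 1 Rrm2 was thus lower in erythroid-like than in cardiomyocyte-like cells, and every library of endothelial-like cells lay below every library of cardiomyocyte-like cells. Cdc6 (11.9-fold), Ccne1, the cyclin that partners CDK2 (5.98-fold), Mcm5, a subunit of the helicase (5.31-fold), and Uhrf1, which guides maintenance of DNA methylation (4.90-fold), followed. Each of these was highest in erythroid-like cells. Ccne1 was lowest in mesenchymal-like cells, with a mean of 16.5 CPM, and the other 4 in epicardial-like cells. The smallest ratios were 2.40 for Mcm4 and 2.78 for E2f1, the transcription factor of the pathway. Ung alone among the G1/S genes was highest in cardiomyocyte-like cells, with a mean of 47.8 CPM there, its highest class in 4 of 4 libraries, and 14.4 CPM in endothelial-like cells. Gins2 and E2f1 were highest in macrophage-like cells, and Cdt1, like Ccne1, was lowest in mesenchymal-like cells.

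Among G2/M genes the ratio was largest for Mki67 (ENSMUSG00000031004.8, chromosome 7, 135689784 to 135716361, minus strand, GRCm38), the gene of the Ki-67 antigen that coats mitotic chromosomes and is widely used to mark cycling cells, at 11.3-fold. It stood at 1924 and 2077 CPM in erythroid-like cells of KO replicates 1 and 2, against 737 and 1006 CPM in het replicates 1 and 2. Epicardial-like cells had 194 and 125 CPM of Mki67 in KO and 81.1 and 106 CPM in het. Aurka, a spindle pole kinase (8.85-fold), Ccna2, cyclin A2 (7.73-fold), Ube2c, the ubiquitin-conjugating enzyme of the anaphase-promoting complex (7.33-fold), and Cdkn3 (6.87-fold) followed. The smallest ratios were those of Cenpf, a kinetochore protein (2.56-fold), and Ccnb2, cyclin B2 (3.48-fold).

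The G2/M genes did not share 1 order between cardiomyocyte-like and endothelial-like cells. Summed over the 21 genes, cardiomyocyte-like cells had 2733 and 2912 CPM in KO and 2557 and 2798 CPM in het, above endothelial-like cells, which had 1811 and 1628 CPM in KO and 1607 and 1812 CPM in het. As CPM of UMIs outside globin the same sums were 2831 and 2597 CPM in KO and 2701 and 2889 CPM in het cardiomyocyte-like cells, against 2791 and 2223 CPM in KO and 2381 and 2482 CPM in het endothelial-like cells, so that the classes overlapped on that scale. On the TMM scale, for 18 of the 21 G2/M genes the mean was higher in cardiomyocyte-like than in endothelial-like cells, and Mki67, Cenpe and Tpx2 were the exceptions. The count was 13 of 21 as CPM of UMIs outside globin and, on that scale, 9 of 21 with cell cycle genes in the clustering. That clustering left clusters led by H3c3 and by Ube2c out of the cardiomyocyte-like class, as given above. The levels of Mki67 were 213 and 158 CPM in KO and 171 and 249 CPM in het cardiomyocyte-like cells, against 274 and 176 CPM in KO and 198 and 218 CPM in het endothelial-like cells, which overlapped. The clusters of cardiomyocyte-like cells differed in it. In cluster 7 (led by Ttn and Slc8a1, median 25763 UMIs per cell) Mki67 stood at 378 and 274.5 CPM in KO and 327 and 335 CPM in het, as CPM of UMIs outside globin. In cluster 9 (led by Myl1, Irx3 and Nppa, median 4238 UMIs) it stood at 65.1 and 39.6 CPM in KO and 56.0 and 46.1 CPM in het. All 4 libraries of cluster 7 thus lay above all 4 of cluster 9. In all, 7 of the 21 genes separated in this way, among them Cenpf (318 to 391.8 CPM in cluster 7, against 112 to 132 CPM in cluster 9), Cenpe (103 to 127.5 CPM, against 32.6 to 41.6 CPM) and Hmmr (108 to 133 CPM, against 33.1 to 50.5 CPM). A further 5 lay lower in all libraries of cluster 7, among them Cdk1 (78.7 to 102 CPM, against 151 to 195 CPM) and Ube2c (227 to 321 CPM, against 414 to 479 CPM), and 9 overlapped. The summed G2/M genes were 2657 and 2359 CPM in KO and 2489 and 2903 CPM in het for cluster 7, against 2549 and 2270 CPM in KO and 2155 and 2280 CPM in het for cluster 9. UMIs per cell moved with this difference, and their part in it was not tested.

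The D cyclins separated the classes in other ways, and differently from each other. Ccnd1 (ENSMUSG00000070348.5, chromosome 7, 144929931 to 144939925, minus strand, GRCm38) was high in endothelial-like cells (209 and 298 CPM in KO, 175 and 242 CPM in het), in macrophage-like cells (174 and 278 CPM in KO, 197 and 237 CPM in het) and in mesenchymal-like cells (180 and 210 CPM in KO, 197 and 196 CPM in het), and these 3 classes overlapped. It was far lower in epicardial-like cells (13.7 and 15.3 CPM in KO, 18.9 and 20.5 CPM in het) and in erythroid-like cells (12.2 and 4.27 CPM in KO, 40.0 and 12.6 CPM in het), which overlapped with each other and with no other class. Cardiomyocyte-like cells lay between, with 57.3 to 78.7 CPM over the libraries.

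Ccnd2 (ENSMUSG00000000184.12, chromosome 6, 127125162 to 127152193, minus strand, GRCm38) had means of 337 CPM in epicardial-like, 320 CPM in endothelial-like, 298 CPM in mesenchymal-like and 288 CPM in cardiomyocyte-like cells, neighbours that overlapped. Erythroid-like cells had 50.05 to 89.7 CPM of it and macrophage-like cells 28.1 to 39.8 CPM. Both lay below the other 4 classes in every library and did not overlap each other. As CPM of UMIs outside globin, Ccnd2 stood at 473 to 581 CPM in epicardial-like cells. On that scale it stood at 201 to 348 CPM in cardiomyocyte-like clusters 0, 2, 6, 7, 9 and 10. The smaller cardiomyocyte-like cluster 24 had 315.5 to 481 CPM. On the TMM scale Ccnd3 (ENSMUSG00000034165.16, chromosome 17, 47505051 to 47599691, plus strand, GRCm38) was highest in erythroid-like, epicardial-like and cardiomyocyte-like cells, with means of 313, 266 and 237 CPM that overlapped, and lowest in macrophage-like cells, at 35.8 to 57.8 CPM. As CPM of UMIs outside globin, it stood at 335 to 476 CPM in epicardial-like cells. Cardiomyocyte-like cluster 9 had 249.5 to 374 CPM on that scale, and clusters 0, 2, 6, 7, 10 and 24 had 186 to 300 CPM. Erythroid-like clusters 1, 16 and 22 had 163 to 216, 433 to 582 and 123 to 154 CPM, so the place of erythroid-like cells differed by cluster. Epicardial-like cells, lowest in 21 of 21 G2/M genes, were thus low in Ccnd1 but not in Ccnd2 or Ccnd3.

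**Figure D3:**
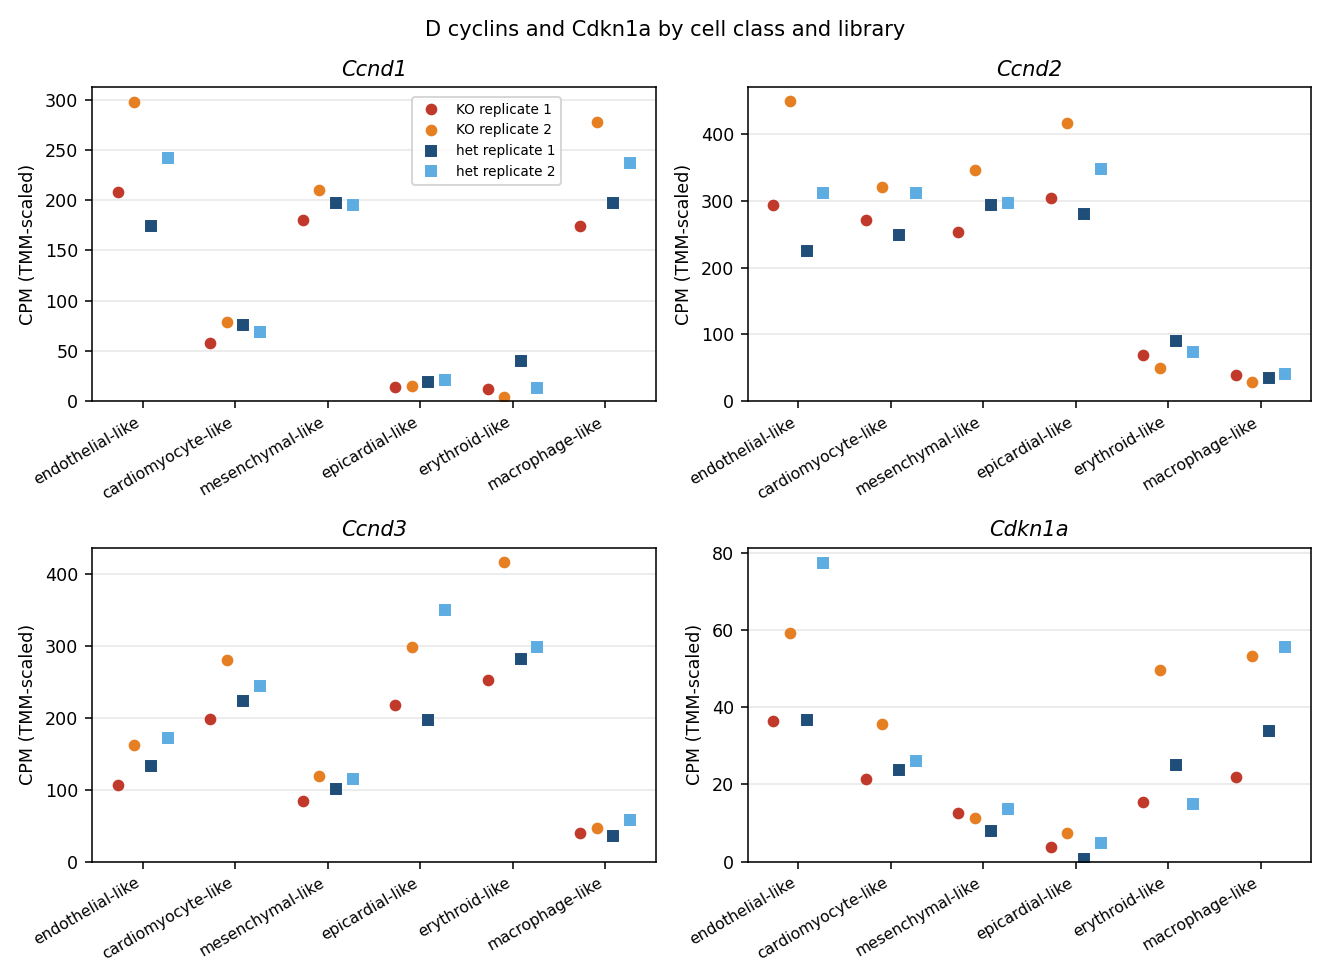
Ccnd1, Ccnd2, Ccnd3 and Cdkn1a in 6 cell classes, in CPM scaled by TMM over all classes, 1 point per library (circles KO, squares het). Ccnd1 is at most 40.0 CPM in epicardial-like and erythroid-like cells, Ccnd2 at most 89.7 CPM in erythroid-like and macrophage-like cells, and Ccnd3 lowest in macrophage-like cells.

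Cdkn1a (ENSMUSG00000023067.14, chromosome 17, 29090976 to 29100727, plus strand, GRCm38) was highest in endothelial-like cells in 4 of 4 libraries, at 36.5 and 59.1 CPM in KO and 36.8 and 77.4 CPM in het. It was lowest in epicardial-like cells in 4 of 4 libraries, at 3.75 and 7.30 CPM in KO and 0.598 and 4.801 CPM in het, the het replicate 1 value resting on 2 UMIs. Within endothelial-like cells it was compared between clusters 14 (led by Wnt4, Stmn2 and Aqp1) and 11 (endocardial-like). As CPM of UMIs outside globin, cluster 14 had 71.2 and 106 CPM in KO and 52.8 and 168 CPM in het, against 40.0 and 69.7 CPM in KO and 57.4 and 80.0 CPM in het in cluster 11, so that cluster 14 was the higher in 3 of 4 libraries and the ranges overlapped. Both Ccnd1 and Ccnd2 were low in cluster 14, with 33.4 and 26.0 CPM of Ccnd1 in KO and 52.1 and 24.4 CPM in het, and 118 and 100.5 CPM of Ccnd2 in KO and 143.5 and 101 CPM in het. The endocardial-like cluster had 350 and 433 CPM of Ccnd1 in KO and 312 and 388 CPM in het, and 678 and 837 CPM of Ccnd2 in KO and 596 and 700 CPM in het. The same cluster also had 5080 and 6006 CPM of Cdkn1c (p57, another inhibitor of CDKs) in KO and 5684 and 5840 CPM in het, against 241 and 217 CPM in KO and 477 and 177 CPM in het in cluster 14. All 4 libraries of cluster 11 thus lay above all 4 of cluster 14 in Cdkn1c, Ccnd1 and Ccnd2. The G2/M share was higher in cluster 14 in 4 of 4 libraries, though the ranges overlapped, at 19.9% and 15.3% in KO and 25.3% and 17.4% in het for cluster 14, against 18.3% and 15.1% in KO and 10.7% and 14.6% in het for cluster 11. The S share was lower in cluster 14 in both KO libraries and in het replicate 2, and higher in het replicate 1. It was 15.45% and 14.4% in KO and 17.9% and 20.5% in het for cluster 14. For cluster 11 it was 21.8% and 22.3% in KO and 15.8% and 22.1% in het.

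The main comparison of the series was KO against het within each class, and in endothelial-like cells no single gene of the 44 passed the test. With edgeR, 0 of the 44 passed an adjusted p of 0.05, as did 0 of 16006 genes (0%), and DESeq2 called 0 of the 44 and 31 of all genes. At an unadjusted p under 0.05 edgeR named 1 of the 44, Ccne1, where 3.63% of all genes passed. Ccne1 stood at 41.2 and 44.5 CPM in KO and 28.7 and 36.2 CPM in het, on the TMM scale of the class, and the groups did not overlap (log2 difference 0.40, SE 0.161, adjusted p = 0.9999). The median log2 difference was 0.05 over the 19 G1/S genes and 0.01 over the 21 G2/M genes, against -0.00384 over all genes, with 12 of each set above 0 and 49.2% of all genes.

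Named by lowest p after Ccne1, Ccnd2 stood at 422 and 634 CPM in KO and 322 and 436 CPM in het, which overlapped (log2 0.48, SE 0.259). Ccnd1 stood at 300.1 and 420 CPM in KO and 249 and 338 CPM in het, also overlapping (log2 0.29, SE 0.237). The groups also held different endothelial-like clusters. Cluster 14, low in Ccnd1, Ccnd2 and Cdkn1c, made up 16.7% and 13.2% of the class in KO, against 41.9% and 24.7% in het, and the endocardial-like cluster 11 made up 44.1% and 44.8% in KO, against 21.7% and 40.3% in het. Within cluster 11 alone, an alternative added after the data were seen, the log2 differences were 0.23 for Ccnd2 (SE 0.242) and 0.16 for Ccnd1 (SE 0.239). Cdkn3, Rrm2 and Ube2c were lower in both KO libraries than in both het libraries, with log2 differences of -0.21, -0.14 and -0.15. Cdkn1a had 52.5 and 83.3 CPM in KO and 52.5 and 108 CPM in het (log2 -0.25, SE 0.371), and Ccnd3 153 and 229 CPM in KO and 190 and 240 CPM in het (log2 -0.17, SE 0.236). In all, 3 of the 44 lay above and 4 below with no overlap between groups, against 14.5% and 14% of all genes. Markers of cardiomyocytes differed too. All 16 such markers had log2 differences below 0, with a median of -1.38, and they took 0.300% and 0.129% of the UMIs of endothelial-like cells in KO and 0.893% and 0.222% in het. Their part in the values was not tested.

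Further cell cycle genes in endothelial-like cells, from other lists, gave the same count of 0 at an adjusted p of 0.05 by edgeR and by DESeq2. Unadjusted p under 0.05 was met by 0 of 39 S-phase genes, 0 of 59 tested G2/M genes, 0 of 9 CDK inhibitors and pocket proteins, 1 of 29 regulators and 2 of 17 p53 targets. Of all genes, 3.63% met it. Cdk6, a partner of the D cyclins, stood at 43.3 and 45.7 CPM in KO and 35.2 and 35.7 CPM in het (log2 0.33, SE 0.128). Tnfrsf10b, a death receptor and p53 target, stood at 38.2 and 42.5 CPM in KO and 23.0 and 29.8 CPM in het (log2 0.61, SE 0.171). Fas, another death receptor, stood at 4.71 and 4.51 CPM in KO and 7.36 and 6.06 CPM in het (log2 -0.54, SE 0.217). The groups did not overlap for these 3 genes, and the edgeR adjusted p of each was 0.9999. Without overlap, 14.5% of all genes lay above and 14% below. Cdkn1c, with 2688 and 4341 CPM in KO and 2262 and 3143 CPM in het, overlapped (log2 0.38, SE 0.306). As CPM of UMIs outside globin it stood at 5080 to 6006 CPM in cluster 11 and at 177 to 477 CPM in cluster 14, whose shares differed between the groups as given above. Within cluster 11 alone its log2 difference was -0.05 (SE 0.267).

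**Figure D4:**
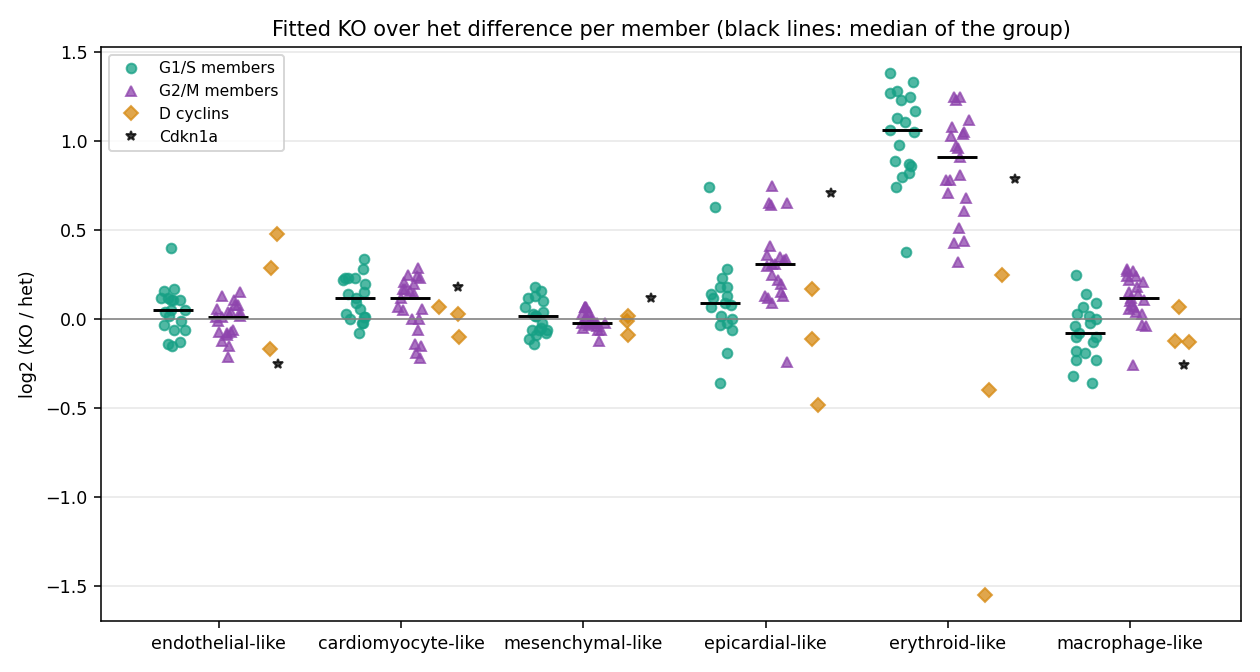
Log2 difference KO over het of each of the 44 genes in each of 6 cell classes, from edgeR (circles G1/S, triangles G2/M, diamonds D cyclins, star Cdkn1a; black lines are medians of the G1/S and G2/M genes). Genes in erythroid-like cells lie apart, with medians of 1.06 for G1/S and 0.91 for G2/M genes, while in endothelial-like cells the medians are 0.05 and 0.01.

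Within the endocardial-like cluster alone, an alternative added after the data were seen, 18 of 19 G1/S and 21 of 21 G2/M genes had log2 differences above 0, with medians of 0.18 and 0.31, against -0.00428 over all genes, of which 49.2% were above 0. Again 0 of the 44 passed the adjusted threshold by edgeR (7 of 14225 genes, 0.0492%, did), and 1, Aurkb, the kinase of the chromosomal passenger complex, passed unadjusted, where 4.96% of all genes did. Aurkb stood at 48.0 and 42.3 CPM in KO and 21.9 and 35.3 CPM in het (log2 0.63, SE 0.239, edgeR adjusted p = 0.912). For most of these genes the lowest library was het replicate 1, with 391 cells in the cluster. Het replicate 2 overlapped KO for some genes and not for others. Mcm6 overlapped, at 114 and 103 CPM in KO and 90.7 and 119 CPM in het. So did Tpx2, at 124 and 106 CPM, against 79.0 and 122 CPM. Cdk1 did not overlap, at 156 and 177 CPM, against 92.9 and 140 CPM.

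In cardiomyocyte-like cells, in which Cdh5 is not known to be active, 0 of the 44 passed the adjusted threshold by edgeR or DESeq2, nor did any of 16632 genes (0%). None passed unadjusted either, against 1.7% of all genes. At least 1 EGFP UMI was found in 25.5% and 22.4% of these cells in KO and 38.7% and 35.9% in het. In endothelial-like cells the shares were 78.6% and 82.0% in KO and 83.3% and 87.9% in het. Over the libraries they were 68.7% to 78.2% in macrophage-like, 65.9% to 70.8% in epicardial-like, 57.2% to 66.5% in mesenchymal-like and 30.7% to 38.7% in erythroid-like cells. UMIs per cell also differed between classes. The source of EGFP UMIs in cardiomyocyte-like cells and in these classes was not tested. Of the 44, 16 lay above and 0 below without overlap between groups, against 13.9% of all genes for each direction, and the medians were 0.12 for G1/S and 0.12 for G2/M genes against -0.000849 over all genes. Log2 differences were above 0 for 16 of 19 and 15 of 21, against 49.8% of all genes. The groups' cells also sat in different clusters, since clusters 6 and 10 held 3.38% and 2.61% of the class in KO replicates 1 and 2, against 82.3% in het replicate 1 and 2.71% in het replicate 2. Without those clusters, an alternative added after the data were seen, the medians were 0.25 for G1/S and 0.38 for G2/M genes, and the log2 differences of Pcna and Cdk1 were 0.64 and 0.74. Pcna, the sliding clamp of DNA polymerase, stood at 164 and 172 CPM in KO and 148 and 117 CPM in het (log2 0.34, SE 0.177, edgeR adjusted p = 0.9998). Cdk1, the kinase of mitotic entry, stood at 151 and 172 CPM in KO and 145 and 120 CPM in het (log2 0.29, SE 0.174). Ccne1, Ccne2, Aurkb and Cdkn3 had log2 differences of 0.28, 0.23, 0.25 and 0.21. The direction depended on how cells were grouped, since with the cell cycle genes among the clustering genes the medians were -0.07 and -0.49. As given above, the class then left out unnamed clusters led by H3c3 and by Ube2c. Their part in these medians was not tested.

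The KO over het difference in endothelial-like cells was also set against that in cardiomyocyte-like cells, by the interaction term of a fit that blocked on library. By edgeR 0 of the 44 and 0 of 18341 genes (0%) passed an adjusted p of 0.05, and 2 of the 44 passed unadjusted, against 7.07% of all genes. The difference was above 0 for 14 of the 44, against 48.1% of all genes. The lowest p belonged to Cdkn3 (log2 -0.44, SE 0.139), Cks2, a small CDK-binding protein (-0.35, SE 0.136), Gins2, of the replicative helicase (-0.31, SE 0.125), and Cdt1, a licensing factor (-0.29, SE 0.124), each with an adjusted p of 0.658. A negative value means a smaller KO over het difference in endothelial-like cells.

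Erythroid-like cells had the largest medians of the 6 classes, and their libraries also differed in the kinds of red cells they held. All 19 G1/S and 21 G2/M genes had log2 differences above 0, with medians of 1.06 and 0.91 against 0.012 over all genes, of which 50.7% were above 0. By edgeR 0 of the 44 and 0 of 12570 genes (0%) passed the adjusted threshold, while DESeq2 called 4 of the 44 and 306 genes (2.43%). Unadjusted, 17 were higher and 1 lower, against 5.09% of all genes higher and 9.53% lower (14.6% together). In all, 32 lay above and 2 below without overlap between groups, against 27.2% and 26.8% of all genes. Mki67 stood at 512.5 and 574 CPM in KO and 184 and 277 CPM in het (log2 1.23, SE 0.289, edgeR adjusted p = 0.274). Ccne2, the second cyclin E, stood at 11.3 and 12.7 CPM in KO and 3.27 and 5.73 CPM in het (log2 1.38, SE 0.333, adjusted p = 0.274). Pcna stood at 80.3 and 104 CPM in KO and 25.1 and 51.2 CPM in het (log2 1.27, SE 0.382). Kif11, a spindle motor, Bub1, a checkpoint kinase, and Cenpf had log2 differences of 1.25, 1.08 and 1.03. Ccnd1 went the other way, at 3.26 and 1.18 CPM in KO and 10.0 and 3.48 CPM in het (log2 -1.55, SE 0.627, edgeR adjusted p = 0.331). Without het replicate 2 edgeR called 36 of the 44 and 21.3% of all genes, and without KO replicate 1 it called 5 of the 44 and 3.23% of all genes.

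The cells outside the largest erythroid-like cluster were 885 of 2369 (37.4%) and 379 of 854 (44.4%) in KO, against 38 of 965 (3.94%) and 156 of 1564 (9.97%) in het. The largest, cluster 1, was led by the embryonic globins Hbb-bh1, Hba-x and Hbb-y, cluster 16 by genes that include Hbb-bt, Hbb-bs and Slc4a1, and cluster 22 by Car1, Klf1, Myb and Gata1. As CPM of UMIs outside globin, the 21 G2/M genes summed to 1238 and 631 CPM in KO and 1923 and 1332 CPM in het in cluster 1. In cluster 16 they summed to 10110 and 10570 CPM in KO and 9620 CPM in het replicate 2, and in cluster 22 to 4695 and 4452 CPM in KO and 4310 CPM in het replicate 2, where het replicate 1 had 19 cells in each cluster and gave no value. Globin took 63.0% and 58.1% of the UMIs in KO and 76.1% and 73.5% in het, and TMM factors were 1.40 and 1.35 in KO and 0.698 and 0.761 in het. Cardiomyocyte markers also differed, with 16 of 16 below 0 and a median of -1.31, and their part in the values was not tested. Within cluster 1 alone, an alternative added after the data were seen, 21 of 21 G2/M genes were below 0 (median -0.67), against 51% of all genes, and 13 of them passed unadjusted, against 1.81% of all genes lower. The G1/S median was 0.03, and by edgeR 0 of the 44 and 0 of 9542 genes (0%) passed the adjusted threshold.

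**Figure D5:**
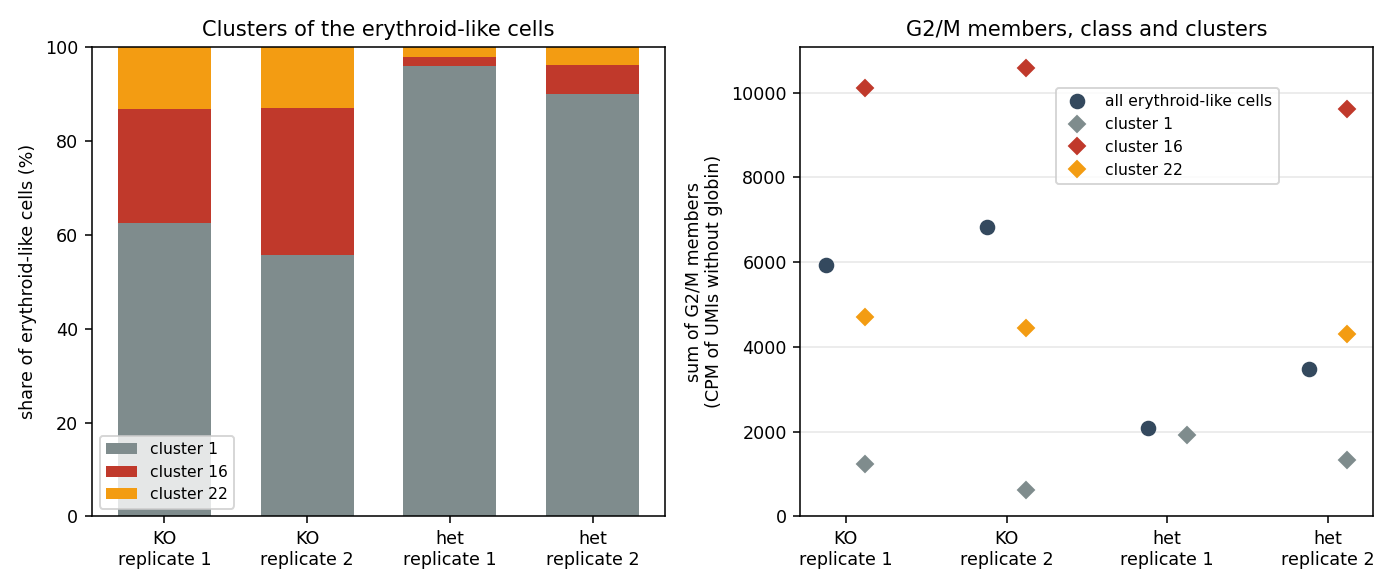
Left, the share of erythroid-like cells in clusters 1, 16 and 22, 1 stacked bar per library. Right, the 21 G2/M genes summed in CPM of UMIs outside globin, with a circle for all erythroid-like cells and a diamond for each cluster of a library. Cells outside the largest cluster make up 37.4% and 44.4% in KO, against 3.94% and 9.97% in het, and the summed G2/M genes of cluster 1 lie at most at 1923 CPM, below every value of clusters 16 and 22.

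In epicardial-like cells 20 of 21 G2/M and 13 of 19 G1/S genes had log2 differences above 0, with medians of 0.31 and 0.09, against 49% of all genes above 0. By edgeR 0 of the 44 and 0 of 13944 genes (0%) passed the adjusted threshold, DESeq2 called 0 of the 44 and 3 genes, and 6 passed unadjusted higher and 1 lower, against 1.03% and 0.624% of all genes (1.66% together). In all, 12 lay above and 2 below without overlap between groups, against 12.6% and 11.1% of all genes. Rrm2 stood at 35.6 and 33.5 CPM in KO and 23.3 and 21.7 CPM in het (log2 0.63, SE 0.191, edgeR adjusted p = 1). Mki67 stood at 292 and 181 CPM in KO and 129 and 152 CPM in het (log2 0.75, SE 0.247). Top2a, the topoisomerase of mitotic chromosomes, Ccne2, Kif11 and Aurkb had log2 differences of 0.65, 0.74, 0.64 and 0.65. Ccnd1 averaged 21.3 ± 1.19 CPM in KO and 29.7 ± 0.405 CPM in het (SD, n = 2 each), without overlap (log2 -0.48, SE 0.191). The class held 329 and 147 cells in KO and 82 and 193 in het, and without het replicate 2 edgeR called 4 of the 44 and 0.407% of all genes. Cardiomyocyte markers were below 0 for 13 of 16, with a median of -0.27, and their part was not tested. Het replicate 1 had a further 2387 cells in unnamed cluster 8, led by Upk3b, that are not in this class.

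In mesenchymal-like and macrophage-like cells 20 and 26 of the 44 had log2 differences above 0. By edgeR 0 passed the adjusted threshold in either class, as for all 16878 and 11982 genes (0% each), DESeq2 called 0 of the 44 in each, and 0 passed unadjusted, against 0.889% and 1.9% of all genes. Mesenchymal medians were 0.02 for G1/S and -0.02 for G2/M genes, with 10 and 8 genes above 0 against 49.5% of all genes, and macrophage medians -0.08 and 0.12, with 7 and 18 above 0 against 50.1%. Without overlap between groups, 2 lay above and 2 below in mesenchymal-like cells, against 9.28% and 9.45% of all genes, and 1 above and 3 below in macrophage-like cells, against 11.7% and 11.5%. In macrophage-like cells Ung averaged 27.2 ± 0.272 CPM in KO and 34.9 ± 7.47 CPM in het (SD, n = 2 each; log2 -0.36, SE 0.202), and Pcna stood at 305.5 and 278 CPM in KO and 250 and 241 CPM in het (log2 0.25, SE 0.154). In mesenchymal-like cells Cdt1 stood at 23.6 and 23.0 CPM in KO and 22.4 and 18.9 CPM in het (log2 0.18, SE 0.152). Without KO replicate 2 edgeR called 1 of the 44 in macrophage-like cells, and 2.3% of all genes.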

How the data were processed

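Per the file headers, which name Cell Ranger 6.0.1, the values are unnormalized UMI counts of each gene in each barcode; the submitters' processing notes name mm10 and Seurat. Barcodes with under 500 genes or at least 20% mitochondrial UMIs were left out, and Scrublet doublets were removed at 0.345, the threshold that worked in het replicate 2, applied to all libraries. Cells were clustered with scanpy 1.11.5 and igraph 0.11.9 (2000 variable genes, 261 cell cycle genes left out, 30 components, 20 neighbours, resolution 1). Of 39 clusters 20 were named from markers. UMIs were summed per class and library and tested with edgeR 4.0.16 (R 4.3.3; TMM, filterByExpr 10 and 15, quasi-likelihood, Benjamini-Hochberg over all genes at 0.05). DESeq2 1.42.0 was an alternative, and the code was tested on simulated data. The matrices held 137890971 to 190207638 UMIs. Gene positions are from GENCODE M21. The 44 genes and all lists were chosen with earlier results of these data known. Named genes were the D cyclins and Cdkn1a, the 5 largest and 2 smallest class ratios per role, up to 6 genes of lowest p per comparison, up to 3 of each other list in endothelial-like cells and up to 4 in the interaction; genes of other kinds, such as Ung, were singled out after their values were seen. Intervals cover counting error only. The labels conflict on the kit.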

Additional observations from a re-analysis of the deposited data

Results flagged for a closer look

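Some genes lay without overlap above het in one class and below het in another. The difference between classes was not tested, and each value is a log2 difference KO over het. Of all genes, 9.28% (mesenchymal-like) to 27.2% (erythroid-like) lay above without overlap in a class, and 9.45% to 26.8% below. How many of all genes went in opposite directions in this way was not counted, so the list is not shown to be particular to these genes. Mcm4, of the helicase, was 1.13 in erythroid-like cells, -0.11 in mesenchymal-like and -0.19 in epicardial-like cells. Ccne2 was 0.23 in cardiomyocyte-like, 0.74 in epicardial-like and 1.38 in erythroid-like cells, and -0.32 in macrophage-like cells. Rrm2 was 0.63 in epicardial-like and 1.25 in erythroid-like cells, and -0.14 in endothelial-like cells. Ung was 0.18 in epicardial-like and 0.38 in erythroid-like cells, and -0.36 in macrophage-like cells. E2f1 was 0.11 in endothelial-like and 0.82 in erythroid-like cells, and -0.14 in mesenchymal-like cells. Uhrf1 was 1.06 in erythroid-like and -0.23 in macrophage-like cells, and Ube2c 0.61 in erythroid-like and -0.15 in endothelial-like cells. The erythroid-like values all rest on libraries that differ in the clusters they hold.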

How the results depend on the processing

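Of the values tried under an alternative, 343 single-gene values kept their direction and their side of the threshold. A further 15 single-gene values reversed, and 24 passed the threshold only under an alternative. Of the summary values, 289 counted as the same, 27 moved and 14 reversed. A median counted as the same within 1 SD between libraries, a count when close to the main count, and a phase difference when its sign held. The cause was not tested. With cell cycle genes in the clustering, the cardiomyocyte-like class left out clusters led by H3c3 and by Ube2c, as given above. Counts of the 44 called by edgeR with a replicate block were 2 in epicardial-like (0.509% of all genes) and 35 in erythroid-like cells (24.8%), and in erythroid-like cells DESeq2 called 4 (2.43%) and the fit with no filter 14 (2.25%). Same-numbered libraries deviated together (correlations 0.367 to 0.590 by class), but with 2 pairs the numbers were not taken as pairing. With each library left out in turn, counts called ran 0 to 4 in epicardial-like, 0 to 36 in erythroid-like and 0 to 1 in macrophage-like cells. Medians ran -0.08 to 0.17 (endothelial G1/S), -0.07 to 0.06 (mesenchymal G2/M), 0.10 to 0.19 (epicardial G1/S), 0.55 to 1.92 (erythroid G1/S) and 0.53 to 1.54 (erythroid G2/M). Phase differences ran -0.399 to 2.95 points (endothelial S), -5.55 to 1.64 (endothelial G2/M) and -2.22 to 3.66 (mesenchymal G2/M). Medians moved to 0.18 and 0.31 in the endocardial-like cluster alone, to -0.07 and -0.49 in cardiomyocyte-like cells with cell cycle genes in the clustering, to 0.38 (G2/M) there without clusters mostly of het replicate 1, to 0.05 (G2/M) in mesenchymal-like cells with EGFP, and to 0.03 and -0.67 in the largest erythroid-like cluster alone. Phase differences in points reversed to -0.714 (endothelial S) and 0.433 (cardiomyocyte G2/M) thinned to 4000 UMIs. For mesenchymal G2/M they were -1.45 with other lists, -0.421 by a rule of 3 UMIs, -0.409 at 4000 and -0.401 not thinned. They were -3.94 for epicardial S with other lists, -0.863 for erythroid S by the UMI rule and 0.0794 for macrophage S not thinned. Genes highest in erythroid-like cells numbered 8 (G1/S) and 9 (G2/M) both without globin and with cell cycle genes in the clustering. Single genes reversed to 0.11 (Cdkn3), 0.27 (Rrm2) and 0.43 (Ube2c) in the endocardial-like cluster, to -0.04 (Pcna), -0.07 (Ccne2), -0.64 (Cdk1), -0.83 (Aurkb) and -0.15 (Cdkn3) in cardiomyocyte-like cells with cell cycle genes in the clustering, to -0.06 (Pcna, without het replicate 2; -0.06 to 0.35 over the libraries left out) and -0.01 (Ccne2, without KO replicate 1; -0.01 to 0.25) in mesenchymal-like cells, to -0.58 (Mki67), -0.42 (Kif11), -0.65 (Cenpf) and -0.16 (Bub1) in the largest erythroid-like cluster, and to -0.03 (Cdk1, without KO replicate 2; -0.03 to 0.51) in macrophage-like cells. Depth limited Cdkn1a in epicardial-like cells most, at 2 UMIs in het replicate 1.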
